A study of Arabidopsis thaliana with 43 samples.

Results

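The step from the preglobular to the globular embryo of the thale cress Arabidopsis thaliana was described from 6 RNA sequencing libraries of the 43 in the series. They were chosen by their titles alone, 3 libraries labelled preglobular and 3 labelled globular, and all loci of these libraries were used. Every plant was wild type of the accession Col-0 and carried no treatment. Plants were grown at 20 to 22 degrees with 16 hours of light. Preglobular here means embryos with 8 or 16 cells, and globular embryos are the next stage of the series, named for their round shape. Each library was made from the total RNA of 50 embryos pooled together, and the labels call the 3 libraries of a stage biological replicates. The amount of RNA that went into each library is given as unknown. The libraries were prepared with Smart-seq2, a method for very small samples that primes on the poly(A) tail and amplifies the cDNA before sequencing.

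At the 8-cell stage the Arabidopsis embryo consists of an upper tier and a lower tier of proembryo cells, carried on a file of suspensor cells that descends from the basal daughter of the zygote. The next divisions set apart an outer layer, the protoderm, and in the globular embryo the precursors of the vascular tissue, the ground tissue and the root pole form. The shoot meristem and the cotyledons are then marked out at the top of the globe. Auxin transport and response, homeodomain transcription factors of the WOX and HD-ZIP classes, and microRNAs are known to direct these events.

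The 6 libraries held between 17769463 and 29576184 estimated counts. Levels are given as CPM, counts scaled to a common library size after rescaling by TMM factors, which were 0.838 to 0.94 at preglobular and 1.04 to 1.15 at globular. At a fixed depth of 17590470 counts, 18775 ± 484 loci (SD, n = 3) had 5 or more counts at preglobular and 18815 ± 486 at globular, and the exact two-sided permutation test gave p = 1. RNAs added as spike-ins took 3.03%, 4.98% and 3.80% of the counts in the preglobular libraries and 0.274%, 0.0912% and 0.166% in the globular ones. The spike-in shares of the stages did not overlap, and 0.1 is the smallest p that 3 against 3 libraries allow. Between the stages, 2406 of 21014 tested loci, or 11.4%, were higher at globular, and 2555, or 12.2%, were lower (edgeR quasi-likelihood test, Benjamini-Hochberg adjusted p under 0.05), in all 23.6%. Libraries did not overlap for 39.2% of loci (18.8% higher, 20.4% lower). An alternative was limma on log2(TPM + 1), which divides by length and does not rescale for composition. With this TPM scaling the median of all tested loci moved up by 0.35 on the log2 scale. The split became 8501 higher (40.5%) and 1074 lower (5.11%). Counts of list members below are to be read beside the shares of all loci under the same scaling. Changes below are therefore relative to the bulk of the transcriptome, and calls of a modest fall that this scaling ends are named as such. Leaving out preglobular replicate 3 lowered the count of higher loci to 1469. In pooled tissue, fewer cells of a type and less RNA per cell cannot be told apart.

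The label of the tissue was checked against marker genes. The defining embryo regulators LEC1, with 324, 339.8 and 357 CPM at preglobular and 339.7, 273 and 323 at globular, and FUS3, with 18.4, 21.8 and 17.3 and then 22.5, 26.9 and 17.78 CPM, were present in every library. MP, the auxin response factor MONOPTEROS, had 317, 282 and 259 CPM and then 334, 332 and 360.2 CPM. Of the 8 embryo markers, 1 was higher and 4 were lower (4 and 3 with the TPM scaling), among them LEC2, at 25.7, 32.5 and 31.8 CPM and then 13.3, 13.97 and 12.6 CPM. The 14 endosperm markers summed to 27.7, 29.3 and 29.4 CPM at preglobular and 24.6, 23.1 and 36.1 CPM at globular, and 0 of the 8 tested were called higher or lower by edgeR, against 1 higher by DESeq2 and 3 higher with the TPM scaling. Among them AGL62, PHE1, MEA and HAIKU2 stayed under 1 CPM in every library, so most of each sum came from other members of the list. The 21 seed coat markers summed to 148, 184 and 232 CPM and then 129, 80.7 and 129 CPM, so that every preglobular library stood above every globular one. SHP1, at 90.9, 120.1 and 184 CPM and then 82.8, 35.7 and 58.6 CPM, made up most of each preglobular sum. Without SHP1 the sums of the stages overlapped. Of the 16 seed coat markers tested, 3 were higher and 2 lower, and 1 was higher without preglobular replicate 1 or globular replicate 2. TT2, TT8, TT16 and MYB5, which define the tannin layer of the seed coat, were at or near 0. Whether seed coat RNA plays a part in any of the falls described here was not tested.

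**Figure D1:**
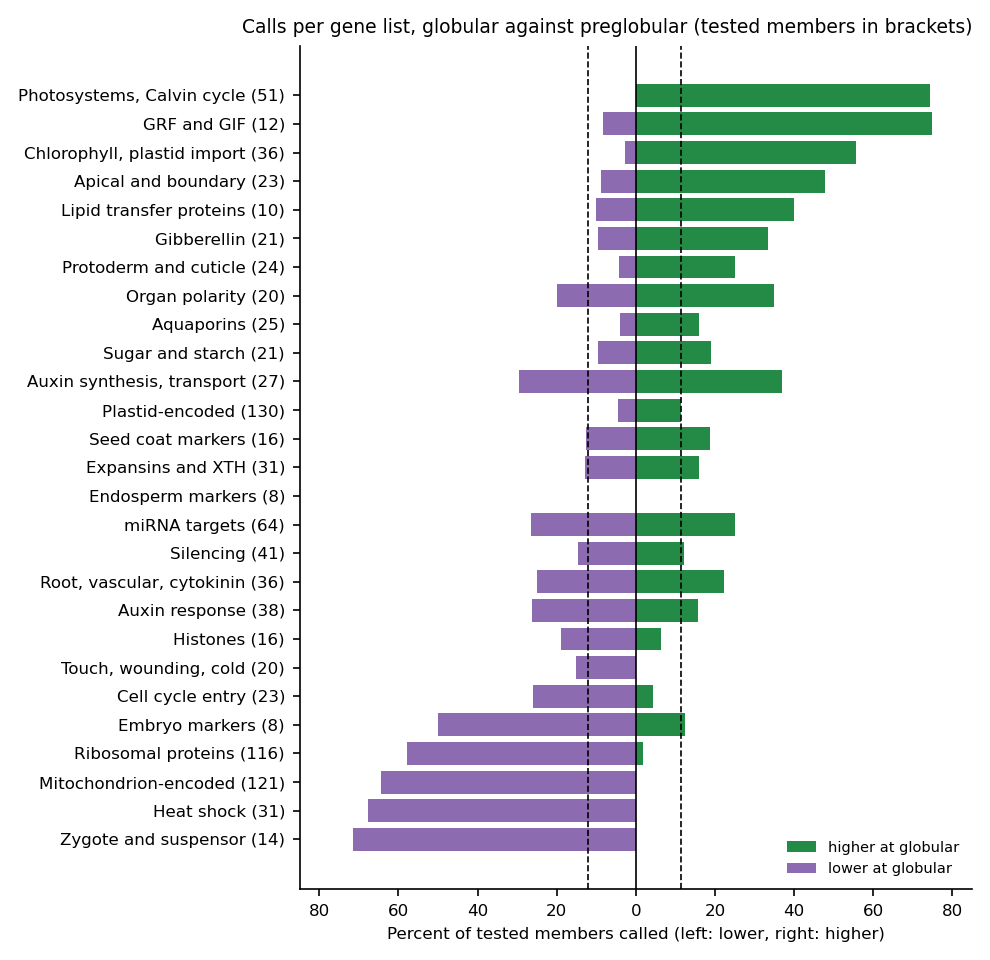
Share of the tested members of 27 gene lists called higher (right, green) or lower (left, purple) at globular than at preglobular, in percent of members tested, which are given in brackets. The dashed lines mark the share over all tested loci, 11.4% higher and 12.2% lower. The lists of photosystem and GRF genes reach farthest to the right, and the zygote and suspensor, heat shock and mitochondrion-encoded lists reach farthest to the left.

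Among the loci with at least 50 CPM in one of the stages, the rises included regulators of growth, transporters and cell wall enzymes. XYL4, a beta-xylosidase that trims xylan, had 6.76, 2.33 and 1.12 CPM at preglobular and 54.3, 58.1 and 64.4 CPM at globular, a 17.3-fold rise. SWEET9, a sucrose transporter known from nectaries, had 31.7, 6.05 and 2.72 CPM and then 178, 147 and 173 CPM, and ADS1, a transporter of the MATE family, had 8.03, 10.7 and 2.3 CPM and then 54.9, 50.5 and 52.5 CPM. For all 3 genes the globular libraries lay above the preglobular ones without overlap. ACP4, an acyl carrier protein of plastid fatty acid synthesis, rose 5.86-fold. Named by the size of the difference in level, the purine permease PUP4 had 412, 291 and 200.2 CPM and then 1327, 987 and 1089 CPM, and SVB, a gene known for its effect on trichome branching, had 261, 137 and 123 CPM and then 804, 616 and 783 CPM. PUP4 rose 3.77-fold and SVB 4.23-fold.

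The falls included genes for small secreted peptides and for growth control. CYP78A5, the cytochrome P450 KLUH that promotes organ growth, had 1059, 2168 and 2272 CPM at preglobular and 197, 240.5 and 188 CPM at globular, and fell 8.79-fold (log2 difference −3.14 ± 0.30 SE, adjusted p = 5.45e-07). GDU4, of the glutamine dumper family, had 76.1, 130.5 and 127 CPM and then 8.49, 8.02 and 12.03 CPM. SCRL26, a gene of the cysteine-rich peptide family related to the pollen self-incompatibility peptide SCR, had 32.2, 62.6 and 88.6 CPM and then 13.6, 7.33 and 8.48 CPM. Replicate 1 was the lowest preglobular library for CYP78A5, GDU4 and SCRL26, and it still lay above every globular library. AGP12, an arabinogalactan peptide, fell 7.25-fold, the purple acid phosphatase PAP20 8.58-fold, SAH7 6.71-fold and WAT1, a vacuolar auxin transporter, 7.43-fold. Named by the size of the difference in level, UBQ5, RPS15, FBR12 and emb2386 were lower by 1.43-fold, 1.81-fold, 1.53-fold and 1.55-fold. Of these, UBQ5 encodes ubiquitin fused to a ribosomal protein and FBR12 a translation factor of the eIF5A family. For UBQ5, FBR12 and emb2386 the call was lost under the TPM scaling.

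Genes of the shoot apex and organ boundaries were called higher more often than lower. Of 23 tested members, 11 were higher and 2 lower, with a median log2 difference of 0.64 against 0.00 over all tested loci. STM, the homeobox gene that maintains the shoot meristem, had 0 counts in all preglobular libraries and 5.51, 8.73 and 7.77 CPM in the globular ones, at least 161-fold higher against a floor of 3 counts over the 3 libraries. KNAT6, a class I KNOX gene that acts with STM, had 19.5, 10.9 and 8.71 CPM and then 52.9, 50.1 and 49.3 CPM. CUC1, a NAC factor that keeps organs apart, had 5.85, 1.08 and 0.984 CPM and then 56.4, 46.4 and 37.6 CPM, a 17.7-fold rise. Thus CUC1 was low in every preglobular library, highest in replicate 1, and the stages stood far apart. Its paralogs behaved otherwise: CUC2 had 55.3, 30.7 and 33.3 CPM and then 57.1, 42.7 and 47.0 CPM with overlap, and CUC3 had 19.5, 13.5 and 10.3 CPM and then 21.4, 22.3 and 23.63 CPM, neither of them called, although CUC3 was called without preglobular replicate 1. That the paralogs differ from CUC1 in their change was not tested.

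NUB, a zinc finger gene of the lateral organs and paralog of JAG, had 1.27, 0.314 and 0.469 CPM and then 25.1, 30.5 and 22.3 CPM (log2 difference 5.24 ± 0.45 SE, adjusted p = 1.08e-07). ANT, an AP2-type factor of organ growth, had 0.544, 0 and 0 CPM and then 10.5, 23.0 and 17.3 CPM. DRNL, an AP2-type factor of cotyledon founder cells, had 26.8, 6.28 and 1.36 CPM and then 86.7, 76.6 and 68.4 CPM. The preglobular libraries differed widely for DRNL, with replicate 1 highest, and none reached the globular range. Its paralog DRN had 44.0, 48.4 and 58.1 CPM and then 30.3, 19.4 and 18.9 CPM, and its adjusted p was 0.0547. JAG itself stayed under 1.4 CPM, and BOP2 had 0.227, 0.224 and 0.0469 CPM and then 0.155, 4.73 and 3.5 CPM. Both were called higher although the stages overlapped in globular replicate 1. CLV1, the receptor kinase that restricts the meristem, had 1.18, 1.75 and 1.22 CPM and then 3.37, 4.82 and 4.32 CPM. The stem cell factor WUS was low at both stages, with 2.86, 2.56 and 3.89 CPM and then 1.94, 1.62 and 1.75 CPM, and was not called.

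The fallen members of this list were WOX2 and AIL7. WOX2, which patterns the apical lineage, had 62.8, 98.1 and 99.0 CPM and then 30.6, 19.4 and 17.39 CPM, a 3.86-fold fall with the stages apart. AIL7, a PLETHORA-type factor, had 25.0, 32.6 and 25.7 CPM and then 8.34, 10.11 and 12.1 CPM, a 2.73-fold fall.

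Genes of organ polarity were called in both directions. Abaxial genes, which give the outer face of an organ its identity, made up 6 of the 7 polarity genes called higher. Of 20 tested among 21 listed, 7 were higher and 4 lower, and with the TPM scaling 8 and 1. FIL, a YABBY gene, had 3.49, 4.62 and 3.09 CPM and then 55.3, 112 and 58.0 CPM, and YAB5, of the same family, had 5.26, 0.986 and 1.17 CPM and then 34.9, 51.0 and 42.9 CPM. FIL rose 20.1-fold and YAB5 17.37-fold, with every globular library above every preglobular one. KAN2 and KAN4, GARP factors of the abaxial side, rose 3.75-fold and 2.98-fold, and ETT, the auxin response factor ARF3, rose 2.42-fold. KAN1, with 15.4, 8.74 and 5.34 CPM and then 15.6, 20.5 and 17.7 CPM, lost its call when preglobular replicate 2 or 3 or globular replicate 2 was left out. AS1, a MYB factor needed on the adaxial side, had 11.4, 12.3 and 15.1 CPM and then 13.4, 31.4 and 31.3 CPM and was called with globular replicate 1 inside the preglobular range.

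The 4 polarity genes called lower held 3 of the HD-ZIP III class, which specify the adaxial face and the vascular pattern. CNA had 56.1, 85.1 and 54.6 CPM and then 14.9, 14.2 and 9.63 CPM, a 5.05-fold fall. PHB had 94.5, 103 and 75.3 CPM and then 50.3, 61.2 and 44.9 CPM, and REV had 32.9, 36.0 and 31.9 CPM and then 18.1, 24.1 and 17.7 CPM. They fell 1.75-fold and 1.68-fold, and under the TPM scaling both calls were lost while that of CNA was kept. The other members of the class were not called: PHV had 23.1, 33.4 and 14.99 CPM and then 37.0, 31.9 and 21.8 CPM, with a rise called without preglobular replicate 2, and ATHB8 had 3.31, 5.11 and 2.81 CPM and then 3.22, 4.49 and 2.35 CPM. WOX3, which acts at organ margins, was the fourth, with 4.35, 3.81 and 3.84 CPM and then 0.776, 2.21 and 2.41 CPM, and its call was lost without preglobular or globular replicate 1 and under the TPM scaling.

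Growth-regulating factors and their coactivators, which sustain cell proliferation in young organs, rose in 9 of 12 tested members and fell in 1, with a median log2 difference of 0.98. GRF4 had 1.9, 1.75 and 0.328 CPM and then 12.5, 17.3 and 16.4 CPM, and GRF8 had 0.408, 0.493 and 0.0469 CPM and then 1.9, 2.0 and 2.84 CPM. GRF2, at 108, 70.4 and 69.7 CPM and then 171, 163 and 145 CPM, and GRF3, at 44.9, 35.2 and 34.2 CPM and then 78.7, 73.6 and 76.4 CPM, were already present at preglobular. These genes rose 11.6-fold, 7.12-fold, 1.93-fold and 2.0-fold. Among the coactivators, AN3, also called GIF1, had 116, 89.9 and 81.9 CPM and then 235, 221 and 215 CPM, whereas GIF2 had 90.4, 85.01 and 93.0 CPM and then 103, 85.1 and 90.6 CPM and GIF3 15.3, 20.0 and 16.2 CPM and then 20.9, 18.7 and 18.4 CPM. AN3 rose, and GIF2 and GIF3 were not called, their stages overlapping. The member called lower, GRF7, stayed at or under 1.12 CPM.

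**Figure D2:**
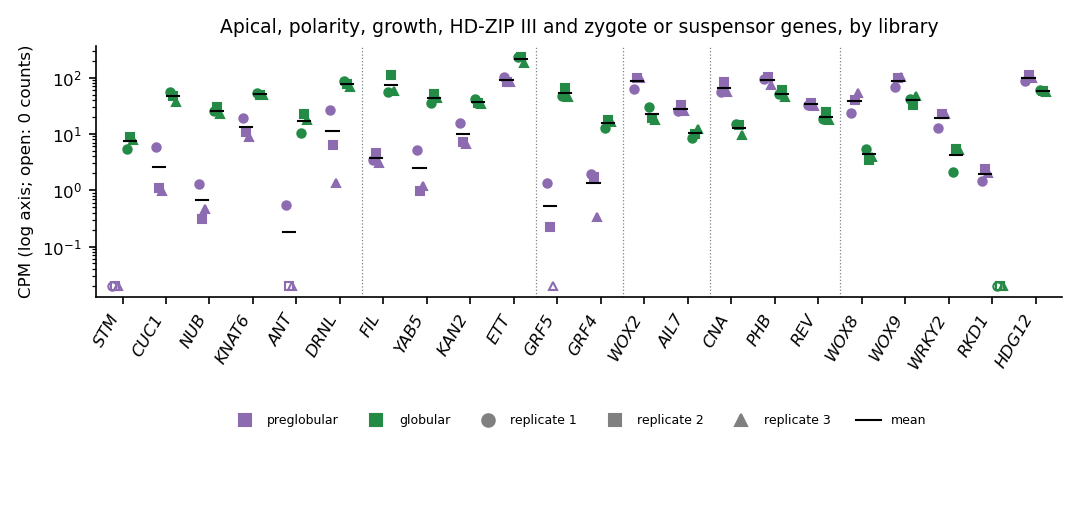
Levels of 22 patterning genes in the 6 libraries, in CPM on a log axis, for preglobular (purple) and globular (green) libraries, with the symbol giving the replicate, a black line the mean of 3 libraries and open symbols 0 counts. From left to right the dotted lines separate apical genes that rose, polarity genes that rose, GRF genes, apical genes that fell, HD-ZIP III genes that fell, and zygote and suspensor genes. STM and RKD1 stand at 0 counts in all 3 libraries of one stage.

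Many patterning genes are known targets of microRNAs, short RNAs that pair with a transcript and lead to its cleavage or silencing. The mature sequences of the microRNAs of the HD-ZIP III, SPL, ARF, CUC and TCP genes are shown because members of each of these families moved, and the capitals mark the seed, bases 2 to 8 counted from the 5′ end. They were read from the RefSeq annotation of TAIR10.1, with T for U.
miR165a-3p (chr1:78932-78952, minus strand): tCGGACCAggcttcatccccc
miR166a-3p (chr2:19176241-19176261, plus strand): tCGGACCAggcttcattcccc
miR156a-5p (chr2:10676534-10676553, minus strand): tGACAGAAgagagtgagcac
miR160a-5p (chr2:16340282-16340302, plus strand): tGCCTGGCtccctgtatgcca
miR164a (chr2:19520770-19520790, plus strand): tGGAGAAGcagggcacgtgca
miR319a (chr4:12353109-12353129, plus strand): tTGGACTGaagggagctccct
The first pair of sequences, miR165a-3p and miR166a-3p, share a seed that none of the others has. The levels of the microRNAs themselves were not measured in these libraries.

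The best ungapped match of these microRNAs other than miR166a-3p was sought in the annotated transcripts. A mismatch was scored as 1 and a G:U pair as 0.5. Capitals mark the bases that pair with the microRNA by Watson-Crick rules. The sites below stand for targets that moved in either direction.
CNA (AT1G52150, for miR165a-3p, chr1:19412976-19413085, minus strand): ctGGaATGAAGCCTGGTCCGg
PHB (AT2G34710, for miR165a-3p, chr2:14642530-14642666, minus strand): ttGGGATGAAGCCTGGTCCGg
REV (AT5G60690, for miR165a-3p, chr5:24398787-24398898, plus strand): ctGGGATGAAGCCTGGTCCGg
SPL10 (AT1G27370, for miR156a-5p, chr1:9505541-9505560, minus strand): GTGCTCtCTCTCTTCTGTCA
ARF17 (AT1G77850, for miR160a-5p, chr1:29274189-29274209, plus strand): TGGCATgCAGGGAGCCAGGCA
CUC1 (AT3G15170, for miR164a, chr3:5111137-5111157, plus strand): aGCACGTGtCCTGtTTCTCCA
TCP4 (AT3G15030, for miR319a, chr3:5063300-5063320, plus strand): gaGGgGtcCCCTTCAGTCCAg
All of these sites lie in coding exons, and the HD-ZIP III sites are split by an intron, so that their coordinates span it. The site of PHV is written exactly like that of PHB, and that of ATHB8 like that of REV, while PHV and ATHB8 were not called. Against miR165a-3p, CNA had 3 mismatches and 1 G:U pair, and PHB, PHV, REV and ATHB8 had 2 mismatches and 1 G:U pair each. Matches to miR166a-3p, which differs from miR165a-3p outside the seed, were not scored and may rank these genes otherwise. CUC2 carries the same letters as CUC1, and the same run found in SPL10 is found in SPL2, SPL6, SPL9, SPL11, SPL13A and SPL15.

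Of 64 microRNA targets tested among 65 listed, 16 were higher and 17 were lower at globular, with a median log2 difference of 0.11. The targets of miR156, miR160 and miR319 did not move as blocks, whereas the GRF genes, described above, were mostly called higher. In the same kind of search with miR396a-5p, GRF5 had no site with a score up to 6. The other GRF genes searched had best scores of 5.5 or 6.0. Among targets of miR156, SPL10, a squamosa promoter binding factor of phase change, had 9.07, 10.4 and 7.07 CPM and then 1.86, 2.27 and 1.7 CPM and fell 4.56-fold. SPL11, whose site is the same, had 1.9, 3.05 and 2.39 CPM and then 0.504, 2.27 and 1.64 CPM and was not called. Among targets of miR160, ARF17 had 10.7, 13.5 and 9.04 CPM and then 4.07, 4.22 and 2.46 CPM, while ARF16 had 2.09, 2.47 and 0.89 CPM and then 3.34, 3.86 and 5.14 CPM. ARF17 fell 3.1-fold, and ARF16 rose 2.27-fold in the fit of all stages, a call lost when only the 6 libraries were fitted.

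The TCP factors under miR319, which promote differentiation, also went both ways. TCP3 had 2.4, 2.51 and 2.11 CPM and then 0.543, 0.299 and 0.492 CPM, and TCP4 had 4.26, 4.98 and 2.48 CPM and then 1.12, 2.03 and 0.875 CPM. TCP24 had 0.453, 0.0448 and 0.0937 CPM and then 5.93, 6.16 and 3.88 CPM. TCP3 and TCP4 thus fell 5.26-fold and 2.91-fold, and TCP24 rose 27.0-fold, each without overlap. TOE3, an AP2-type target of miR172, fell 4.53-fold, and MYB65, a target of miR159, fell 2.64-fold. NF-YA2, a target of miR169, rose 2.93-fold, and LCR, a target of miR394 in the shoot meristem, rose 1.76-fold. With the TPM scaling the split over the list became 27 higher (42.2%) and 8 lower (12.5%), beside 40.5% and 5.11% of all loci.

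The zygote and suspensor genes that were called were all lower. Of 14 tested, 0 were higher and 10 were lower, with a median log2 difference of −0.84, and the 17 members summed to 417, 524 and 552 CPM at preglobular and 303, 277 and 291 CPM at globular. WOX9, a homeobox gene of the basal lineage, had 67.2, 96.8 and 101 CPM and then 41.7, 33.1 and 47.3 CPM. WRKY2, an activator of WOX8 in the zygote, had 12.9, 22.4 and 22.7 CPM and then 2.13, 5.38 and 5.09 CPM. The stages did not overlap for either gene, and the falls were 2.17-fold and 4.6-fold, beside 8.91-fold for WOX8. RKD1, an RWP-RK factor known from the egg cell, had 1.45, 2.38 and 2.01 CPM and then 0 counts in all globular libraries, at least 47.3-fold lower against the floor of 3 counts over the group. DESeq2 did not call RKD1 (adjusted p = 0.0587). The related RKD2 had 0.861, 1.84 and 2.06 CPM and then 0.31, 0.479 and 0.656 CPM, and its call was lost without preglobular replicate 3 or globular replicate 1 or 2.

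Smaller falls were called for PIN7, the auxin carrier of the suspensor, at 22.8, 31.1 and 36.9 CPM and then 17.38, 13.0 and 14.9 CPM, and for HAN, a GATA factor at the boundary of proembryo and suspensor, at 99.7, 96.7 and 113 CPM and then 65.6, 63.5 and 57.7 CPM. WIP2 and HDG12 were lower by 1.87-fold and 1.71-fold. The call of PIN7 was lost without preglobular replicate 3 or globular replicate 2. Under the TPM scaling the calls of PIN7, HAN, WIP2 and HDG12 were lost, the list stood at 2 higher and 5 lower, and its median remained 0.64 below that of all loci on the log2 scale. YDA, the kinase that drives the elongation of the zygote, had 23.8, 27.6 and 33.7 CPM and then 30.5, 24.2 and 31.1 CPM and was not called.

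Root, vascular and cytokinin genes were called in both directions, 8 higher and 9 lower of 36 tested among 37 listed. With the TPM scaling 17 were higher (47.2%) and 7 lower (19.4%), beside 40.5% and 5.11% of all loci. SCR, a GRAS factor of the ground tissue, had 84.8, 62.0 and 57.3 CPM and then 129.9, 137 and 128 CPM. JKD, a zinc finger partner of SCR, had 41.9, 18.1 and 16.8 CPM and then 60.04, 61.6 and 69.4 CPM. Both rose, 1.93-fold and 2.48-fold, whereas SHR, which acts above them, had 48.4, 50.0 and 48.2 CPM and then 36.6, 38.6 and 29.6 CPM and an adjusted p of 0.0741. TMO7, a small bHLH protein made in the lower tier and moving to the root founder cell, had 0.181, 0.0448 and 0 CPM and then 7.02, 9.3 and 11.7 CPM. LHW, the bHLH partner of TMO5 in vascular divisions, rose 1.61-fold, and T5L1, a close relative of TMO5, had 25.2, 31.2 and 34.2 CPM and then 5.82, 6.94 and 6.24 CPM, a 4.77-fold fall. TMO5 itself was lower by 1.64-fold, and PLT1, a root stem cell factor, by 1.76-fold, and these calls were lost under the TPM scaling.

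Cytokinin genes of this list were called in both directions. ARR5, a type-A response regulator that is induced by cytokinin, had 3.58, 7.94 and 9.28 CPM and then 0.776, 0.808 and 0.273 CPM, and ARR4, of the same type, had 12.6, 17.3 and 17.80 CPM and then 5.51, 5.71 and 7.66 CPM. ARR15 had 2.45, 5.92 and 11.2 CPM and then 0.388, 2.3 and 1.91 CPM, and its call was lost without preglobular replicate 3. The falls were 11.2-fold, 2.52-fold and 4.24-fold, without overlap. The related ARR7, with 10.3, 11.9 and 11.1 CPM and then 7.72, 6.43 and 8.86 CPM, and ARR6, which stayed under 1 CPM, were not called, though ARR6 was called higher without preglobular replicate 1. AHP6, a pseudo-phosphotransfer protein that blocks cytokinin signalling, had 13.3, 5.65 and 1.31 CPM and then 54.4, 63.4 and 53.4 CPM, an 8.46-fold rise. Among the enzymes that release active cytokinin, LOG3 rose 3.27-fold and LOG8 fell 1.88-fold. The receptor AHK2 had 1.36, 1.84 and 0.469 CPM and then 4.19, 3.53 and 4.87 CPM and was called higher.

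Auxin synthesis and transport genes gave 10 higher and 8 lower of 27 tested among 34 listed. With the TPM scaling 13 were higher (48.1%) and 3 lower (11.1%), beside 40.5% and 5.11% of all loci. TAA1, the aminotransferase of the first step from tryptophan, had 28.7, 30.7 and 35.6 CPM and then 14.9, 14.7 and 12.5 CPM, a 2.26-fold fall. YUC1, a flavin monooxygenase of the second step, had 4.13, 1.84 and 1.27 CPM and then 5.7, 6.64 and 9.13 CPM, and YUC8, of the same family, had 1.09, 0.538 and 0 CPM and then 4.96, 4.07 and 6.18 CPM. YUC9 had 4.08, 7.22 and 5.01 CPM and then 1.32, 0.389 and 1.37 CPM, and its call was lost without globular replicate 2. So 2 members of the YUC family were higher and 1 lower without overlap, and YUC6, which stayed under 1.2 CPM, was called higher but lost the call without preglobular replicate 2 or 3, without globular replicate 2 or 3, and under the TPM scaling. IAMT1, which methylates auxin, had 3.31, 2.78 and 0.375 CPM and then 75.2, 64.8 and 109.8 CPM.

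Among the efflux carriers, PIN6 had 0.635, 1.57 and 0 CPM and then 3.06, 11.5 and 7.33 CPM, a 9.93-fold rise, and ABCB19, an efflux transporter of another class, had 48.1, 41.1 and 40.5 CPM and then 72.9, 80.0 and 85.4 CPM. Of the influx carriers, LAX3 had 0.907, 1.12 and 1.92 CPM and then 0, 0.0897 and 0.0547 CPM and fell, and LAX2 had 167, 169 and 118 CPM and then 195, 161 and 222 CPM and was not called. PIN2 was at 1.27, 0.717 and 0.328 CPM and then at 0 counts, at least 18.8-fold lower, a call lost under the TPM scaling. The count of higher members was 6 without preglobular replicate 2 or 3 or globular replicate 2, and the count of lower members was 5 without preglobular replicate 2 or globular replicate 2 and 4 without preglobular replicate 3.

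Auxin response genes gave 6 higher and 10 lower of 38 tested among 40 listed. With the TPM scaling 17 were higher (44.7%) and 5 lower (13.2%), beside 40.5% and 5.11% of all loci. Members of the Aux/IAA family, repressors many of which auxin removes and whose own genes often respond to auxin, went both ways. IAA1 had 27.5, 26.4 and 27.6 CPM and then 8.42, 9.15 and 8.04 CPM, and IAA30 had 82.1, 78.3 and 83.8 CPM and then 29.4, 30.4 and 31.2 CPM. IAA18 had 124, 128 and 104 CPM and then 59.3, 52.8 and 48.6 CPM. These 3 repressors fell by 3.18-fold, 2.68-fold and 2.22-fold with tight replicates and no overlap. IAA19 had 12.8, 8.47 and 8.39 CPM and then 30.0, 25.1 and 20.0 CPM, and IAA20 had 6.94, 2.47 and 2.39 CPM and then 14.7, 10.7 and 12.1 CPM. Both rose, by 2.53-fold and 3.18-fold. BDL, the repressor of MP in the embryo, had 41.4, 36.2 and 40.4 CPM and then 50.8, 45.02 and 45.4 CPM and was not called. AFB3, an auxin receptor, rose 1.66-fold, a call lost without preglobular replicate 2, while TIR1 had 42.9, 46.5 and 42.9 CPM and then 29.7, 43.6 and 35.3 CPM and was not called.

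The promoters of IAA1 and IAA19 are shown because these genes went in opposite directions. Printed are the 200 bases before the annotated start, 5′ to 3′ on the strand of the gene, from RefSeq TAIR10.1, and capitals mark the auxin response elements TGTCTC and TGTCGG on either strand. The submitters' notes name TAIR10, and the deposited tables hold no coordinates.
IAA1 (AT4G14560, chr4:8360796-8360995, plus strand): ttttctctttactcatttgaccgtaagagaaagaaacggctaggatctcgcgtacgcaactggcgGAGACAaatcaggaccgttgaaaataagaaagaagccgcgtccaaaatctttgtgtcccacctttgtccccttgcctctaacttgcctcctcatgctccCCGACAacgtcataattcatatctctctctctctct
IAA19 (AT3G15540, chr3:5263801-5264000, plus strand): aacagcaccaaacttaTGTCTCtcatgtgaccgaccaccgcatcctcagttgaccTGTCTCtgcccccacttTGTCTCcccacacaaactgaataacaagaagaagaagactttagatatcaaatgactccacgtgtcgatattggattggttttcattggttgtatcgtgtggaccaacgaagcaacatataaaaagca
IAA19 held 3 copies of TGTCTC, and IAA1 held 1 copy of TGTCTC and 1 of TGTCGG, both read from the other strand. In the window from 250 bases before to 50 after the start, TGTCTC was found in 8 of 40 auxin response promoters (20%) and in 14.2% of 27443 protein-coding promoters. It was present in 3 of 6 members called higher and in 3 of 10 called lower. TGTCGG was found in 6 of 40 (15%) against 5.12% of all promoters, in 0 of 6 called higher and 2 of 10 called lower. These matches describe letters and not sites in use.

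Protoderm and cuticle genes rose in 6 of 24 tested members and fell in 1, with a median log2 difference of 0.25. CER6, which elongates the fatty acids of wax, had 42.8, 18.6 and 13.3 CPM and then 73.7, 62.9 and 79.5 CPM. DCR, an acyltransferase needed for cutin, had 324, 249.8 and 159 CPM and then 544, 559 and 579 CPM. The lipid transfer protein genes LTP1, with 5.17, 7.8 and 4.03 CPM and then 17.1, 17.1 and 24.2 CPM, and LTP2, with 0.317, 1.66 and 0.187 CPM and then 17.5, 13.6 and 23.2 CPM, rose 3.44-fold and 25.1-fold. For CER6 and DCR the rise was 2.89-fold and 2.3-fold, and replicate 1 was the highest preglobular library for both. LACS2, an acyl-CoA synthetase of cutin, rose 1.81-fold. PDF1, an abundant marker of the outer layer, had 3386, 3291 and 3288 CPM and then 4653, 2782 and 3578 CPM and was not called. ATML1, the homeobox factor that specifies the outer layer, had 185, 224 and 231 CPM and then 145, 130.0 and 135 CPM, a 1.56-fold fall whose call was lost under the TPM scaling, where 17 members were higher and 0 lower.

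In the lipid transfer protein family 4 of 10 tested genes were higher and 1 lower. Beside LTP1 and LTP2, the membrane-anchored LTPG1 had 808, 614 and 535 CPM and then 1350.1, 849.9 and 1214 CPM, and LTPG2 had 104, 76.3 and 50.5 CPM and then 163, 138 and 179 CPM. Both rose, whereas LTP3, with 4414, 4195 and 4014 CPM and then 3807, 2097 and 2938 CPM, did not pass the test. LTP12, with 0.635, 1.48 and 5.58 CPM and then 0, 0.0299 and 0 CPM, was the member called lower, and DESeq2 did not call it (adjusted p = 0.376). The L1 box, TAAATGCA or TAAATGTA, to which the ATML1 class binds, was found in the promoters of 6 of 24 protoderm genes (25%) and of 5.1% of all promoters. None of the 6 members called higher held it, and 6 of the 17 not called did.

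Most of the genes of photosynthesis were called higher. Of 51 tested nuclear genes for photosystem, electron transport and Calvin cycle proteins, 38 were higher and 0 were lower, with a median log2 difference of 1.93, and they summed to 1366, 1525 and 381 CPM and then 3348, 4621 and 4968 CPM. Preglobular replicate 3 stood apart with the lowest sum. Leaving it out lowered the count to 25 and the median to 1.48. LHCB3, a light-harvesting protein of photosystem II, had 28.3, 29.0 and 3.65 CPM and then 82.4, 109 and 109 CPM, and LHCA3, of photosystem I, had 25.5, 32.1 and 5.72 CPM and then 59.5, 91.3 and 97.7 CPM. PSBO1, of the oxygen-evolving complex, had 47.2, 52.0 and 13.0 CPM and then 149, 210.3 and 201 CPM. In all 3 genes preglobular replicate 3 was lowest by far and the remaining preglobular libraries still lay below the globular ones, and each call held when it was left out.

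PETC, the Rieske protein of the cytochrome complex, had 29.7, 22.1 and 8.62 CPM and then 66.1, 78.9 and 81.7 CPM (log2 difference 1.91 ± 0.31 SE, adjusted p = 0.000136). RBCS1A, the small subunit of Rubisco, had 125, 164 and 20.6 CPM and then 502, 541 and 722 CPM. FBA2, a plastid aldolase, had 12.8, 10.4 and 1.12 CPM and then 33.7, 70.2 and 72.9 CPM. RBCS1A rose 5.7-fold and FBA2 7.28-fold. RBCS and LHCB1 genes are near-identical copies, among which shared reads were divided by likelihood, so single values are uncertain, and LHCB1.3 lost its call in 5 of the 6 fits that left out a library. Among the 13 not called was ATPD, of the plastid ATP synthase, with 50.6, 52.5 and 28.4 CPM and then 50.4, 60.5 and 68.0 CPM.

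Genes of chlorophyll synthesis and plastid import were higher in 20 and lower in 1 of 36 tested, and with the TPM scaling in 29 and 0. GLK1, which with GLK2 switches on chloroplast genes, had 0.544, 0.897 and 0.0469 CPM and then 3.61, 3.35 and 1.53 CPM, and GNC, a GATA factor of greening, had 0, 0.135 and 0 CPM and then 1.78, 2.09 and 1.15 CPM. Both rose without overlap, the call of GLK1 being lost when only the 6 libraries were fitted. CHLG, the chlorophyll synthase, had 20.9, 17.9 and 13.5 CPM and then 48.4, 44.0 and 43.6 CPM, and CHLI1, of the magnesium chelatase, had 39.5, 33.6 and 23.9 CPM and then 82.4, 79.2 and 75.6 CPM. PORB, the light-dependent reductase, had 3.85, 3.9 and 1.08 CPM and then 15.8, 27.6 and 29.5 CPM. These rose 2.6-fold, 2.44-fold and 8.25-fold with no overlap. The import channel and receptor genes did not pass the test: TOC75-III had 105, 131 and 120.3 CPM and then 139, 112 and 136 CPM, TOC159 had 70.0, 79.1 and 80.2 CPM and then 87.1, 78.8 and 91.2 CPM, and TIC110 had 97.8, 85.3 and 94.4 CPM and then 103, 119.7 and 98.6 CPM. GUN1, which links the plastid to the nucleus, rose 2.01-fold.

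**Figure D3:**
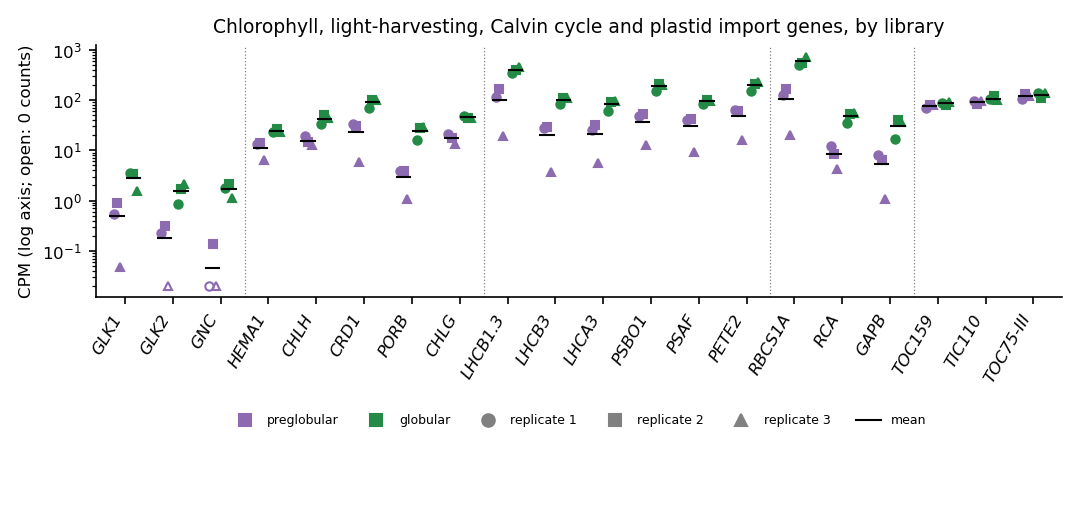
Levels of 20 genes of greening in the 6 libraries, in CPM on a log axis, with symbols as in the plot of patterning genes. Dotted lines separate regulators, chlorophyll synthesis, light-harvesting and photosystem genes, Calvin cycle genes and plastid import genes. Preglobular replicate 3 (purple triangles) is lowest for the photosystem genes, and the libraries of the stages overlap for TOC159 and TOC75-III.

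Genes encoded in the plastid did not follow the nuclear ones in the counts. Of 130 tested among 133, 15 were higher (11.5%) and 6 lower (4.62%), against 11.4% and 12.2% of all loci, and they held 0.843% ± 0.0917 (SD, n = 3) of counts at preglobular and 0.912% ± 0.195 at globular (exact two-sided permutation p = 0.7). Of the TPM they held 1.67% ± 0.296 and 2.69% ± 0.408, without overlap (exact two-sided permutation p = 0.1). The split was 6 and 11 without preglobular replicate 1, 3 and 5 without preglobular replicate 3, 7 and 4 without globular replicate 1, and 7 and 12 without globular replicate 3, and DESeq2 gave 16 and 13. With the TPM scaling 63 were higher (48.5%) and 0 lower, beside 40.5% and 5.11% of all loci. Smart-seq2 primes on poly(A) tails, which most organelle transcripts lack.

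Mitochondrion-encoded genes held 2.72%, 2.98% and 3.3% of counts at preglobular and 1.42%, 2.11% and 2.32% at globular, without overlap. Of 121 tested among 152, 0 were higher and 78 lower. That count was 47 without globular replicate 1 and 48 without preglobular replicate 3. Nuclear genes annotated as ribosomal proteins, a list that also holds some proteins of plastid and mitochondrial ribosomes, were lower in 67 and higher in 2 of 116 tested among 125, with a median log2 difference of −0.46, and summed to 115719, 121857 and 137447 CPM and then 100528, 79325 and 96135 CPM. Without globular replicate 2, the library with the lowest sum, 43 were lower. With the TPM scaling their median was 0.03, with 8 higher and 8 lower, so the direction of this family rests on the scaling, although its median lay 0.31 below that of all loci there too. RPS15 had 2174, 2317 and 2602 CPM and then 1103, 1291 and 1517 CPM and kept its call under that scaling.

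**Figure D4:**
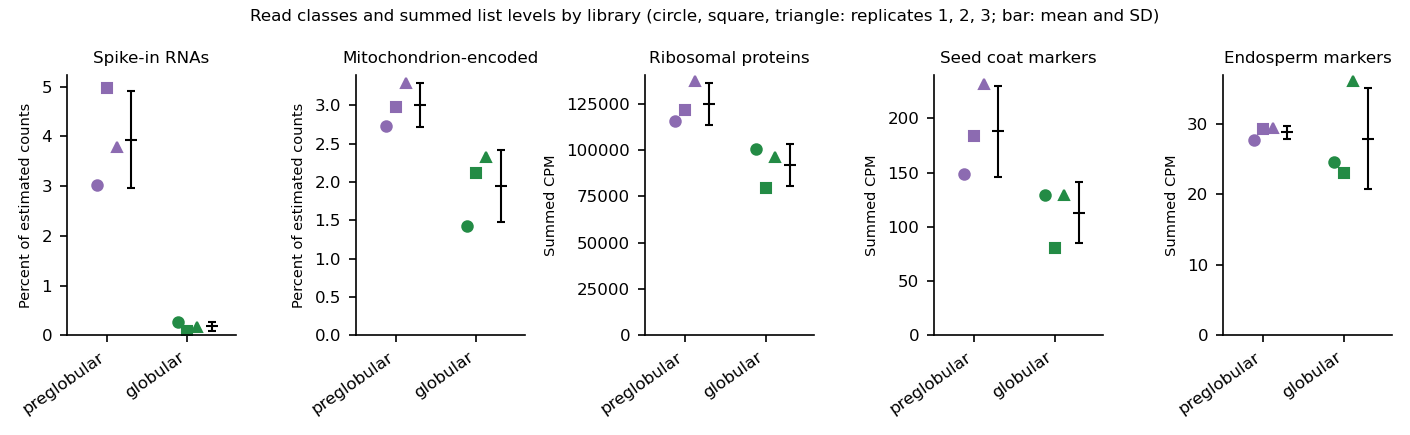
Share of estimated counts in spike-in RNAs and in mitochondrion-encoded genes, in percent, and summed CPM of ribosomal protein genes, seed coat markers and endosperm markers, for each library, with the mean and SD of 3 libraries beside the points. Spike-in, mitochondrial, ribosomal protein and seed coat values do not overlap between the stages, and the endosperm values do. The seed coat separation rests on SHP1.

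Heat shock genes were called lower in most tested members. Of 31 tested among 33 listed, 0 were higher and 21 lower, with a median log2 difference of −1.65, and with the TPM scaling 3 were higher and 17 lower. Left out of the list by its naming rule were HSP17.6B, HSP17.6C, HSP17.8, HSP23.5, HSP15.7 and HSC70-3. Several small heat shock proteins, which hold unfolded proteins, were among the members lower at globular, while HSP18.2, also of this kind, was not called. HSP17.4 had 48.0, 14.1 and 37.1 CPM and then 1.32, 0.329 and 1.37 CPM, and HSP17.6II had 23.58, 6.59 and 27.1 CPM and then 0.853, 0.0897 and 0.383 CPM. HSP23.6-MITO, of the mitochondrion, had 16.4, 3.32 and 13.5 CPM and then 0.0776, 0.299 and 0.602 CPM. Replicate 2 was the lowest preglobular library for these genes and still lay above all globular libraries, and the log2 differences were −5.09 ± 1.03, −5.46 ± 0.65 and −5.13 ± 1.05 (SE). HSP21, of the plastid, was too low to be tested, with 1.09, 0.0448 and 1.36 CPM and then 0 counts, at least 20.2-fold lower.

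Among the chaperones that need ATP, HSP101, which dissolves aggregates, had 44.5, 27.6 and 45.6 CPM and then 7.02, 6.7 and 10.7 CPM, and HSP90.1, the inducible HSP90, had 99.3, 89.4 and 97.1 CPM and then 17.7, 19.9 and 31.9 CPM. These fell 4.82-fold and 4.11-fold. The constitutive HSC70-1 had 3531, 4186 and 4397 CPM and then 2560.5, 2898 and 3116 CPM, a 1.41-fold fall whose call was lost when preglobular replicate 2 or 3 or globular replicate 1 or 2 was left out and under the TPM scaling. HSP81-3, a constitutive HSP90, had 1449, 1615 and 1755 CPM and then 962, 1046 and 1226 CPM and was not called, with an adjusted p of 0.0607, though DESeq2 called it lower. Of the cochaperones, ROF2 was at 56.1, 41.0 and 44.1 CPM and then 8.73, 11.04 and 10.4 CPM, and BAG6 at 26.3, 11.9 and 23.9 CPM and then 4.38, 4.1 and 4.43 CPM. ROF2 fell 4.68-fold and BAG6 4.81-fold, while ROF1, the paralog of ROF2, had 241, 216 and 204 CPM and then 199.7, 203 and 182 CPM and was not called.

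Regulators of the heat response were called lower or not called. MBF1C, a coactivator, had 205, 164 and 186 CPM and then 16.4, 20.1 and 32.0 CPM, and HSFA2, the factor that sustains the response, had 103, 90.5 and 97.5 CPM and then 19.2, 23.2 and 17.83 CPM. HSFA7A had 14.01, 4.93 and 9.79 CPM and then 0.31, 0.568 and 1.86 CPM, and HSFA7B had 3.22, 2.24 and 3.42 CPM and then 0.0388, 0 and 0.547 CPM. The falls were 8.1-fold, 4.83-fold, 10.5-fold and 15.2-fold. Of the master factors that start the response, HSFA1A had 4.08, 4.71 and 4.83 CPM and then 5.31, 6.43 and 3.99 CPM, HSFA1B 6.39, 5.47 and 4.03 CPM and then 6.98, 7.03 and 5.14 CPM, and HSFA1D 20.5, 24.5 and 21.0 CPM and then 23.2, 22.8 and 20.3 CPM. The stages overlapped for all 3, and HSFA1E, with 6.12, 6.05 and 5.67 CPM and then 9.11, 8.73 and 6.18 CPM, was not called either. HSFA3, with 0.861, 0.628 and 0.187 CPM and then 1.16, 0.808 and 0.82 CPM, HSFB1, with 3.31, 2.74 and 0.937 CPM and then 5.31, 3.8 and 4.05 CPM, and HSFB2A, with 23.8, 10.99 and 16.4 CPM and then 7.99, 9.54 and 7.6 CPM, were not called. HSFB1 was called higher without preglobular replicate 1 and by DESeq2, and HSFB2A was called lower without preglobular replicate 2 and by DESeq2.

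The promoters of 3 heat shock genes are shown because the element bound by heat shock factors was frequent in this group. They are printed as the 200 bases before the start, as above, with capitals marking the core element GAANNTTC and its longer form, the core followed after any 2 bases by GAA, on either strand.
HSP17.4 (AT3G46230, chr3:16984868-16985067, minus strand): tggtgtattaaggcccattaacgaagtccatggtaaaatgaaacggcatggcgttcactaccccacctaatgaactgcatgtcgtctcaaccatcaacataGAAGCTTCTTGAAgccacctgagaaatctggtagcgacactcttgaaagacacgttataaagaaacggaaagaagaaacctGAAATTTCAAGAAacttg
HSFA2 (AT2G26150, chr2:11135424-11135623, plus strand): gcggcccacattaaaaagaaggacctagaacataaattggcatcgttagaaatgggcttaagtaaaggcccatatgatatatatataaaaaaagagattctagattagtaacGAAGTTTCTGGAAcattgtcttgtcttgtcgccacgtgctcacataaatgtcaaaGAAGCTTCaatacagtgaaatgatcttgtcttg
HSFA7A (AT3G51910, chr3:19264941-19265140, plus strand): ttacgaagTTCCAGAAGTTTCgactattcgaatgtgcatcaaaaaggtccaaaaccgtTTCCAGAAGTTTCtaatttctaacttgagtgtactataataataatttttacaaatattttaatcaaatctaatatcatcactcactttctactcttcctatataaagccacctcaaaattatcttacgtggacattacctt
HSP17.4 and HSFA7A each held 2 copies of the longer form. In the window from 250 bases before to 50 after the start, the core was found in 10 of 33 heat shock promoters (30.3%) and in 11.6% of all 27443. It was present in 9 of 21 members called lower (42.9%) and in 0 of 10 not called. The longer form was found in 6 of 33 (18.2%), against 0.481% of all promoters, and these 6, HSP17.4, HSP70, HSFA2, HSFA7A, HSFA7B and HOP3, were all among the 21 called lower. The matches in HSP70 and HOP3 lie after the annotated start. A match is a description of the letters, and a promoter without one in this window may hold other elements.

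Genes of touch, wounding and cold gave 0 higher and 3 lower of 20 tested among 22 listed. Of all loci, 11.4% were higher and 12.2% lower, so the share called lower lay near that of all loci. DREB2A, a factor of drought and heat responses, had 49.0, 35.9 and 54.2 CPM and then 7.06, 9.6 and 6.95 CPM, and the zinc finger gene ZAT12, which responds to many stresses, had 25.1, 13.9 and 33.6 CPM and then 5.2, 5.74 and 4.49 CPM. Both fell, by 5.89-fold and 4.71-fold. JAZ10, a repressor of jasmonate signalling, was lower by 1.72-fold, a call lost under the TPM scaling. The touch genes TCH2, with 153, 106 and 102 CPM and then 114, 75.4 and 89.5 CPM, and TCH4, with 122, 82.5 and 75.4 CPM and then 81.9, 77.6 and 83.2 CPM, were not called, nor was the jasmonate synthesis gene AOS, with 2.9, 2.38 and 1.41 CPM and then 2.48, 1.41 and 1.97 CPM. Whether the collection of the embryos played a part in the heat shock falls was not tested.

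**Figure D5:**
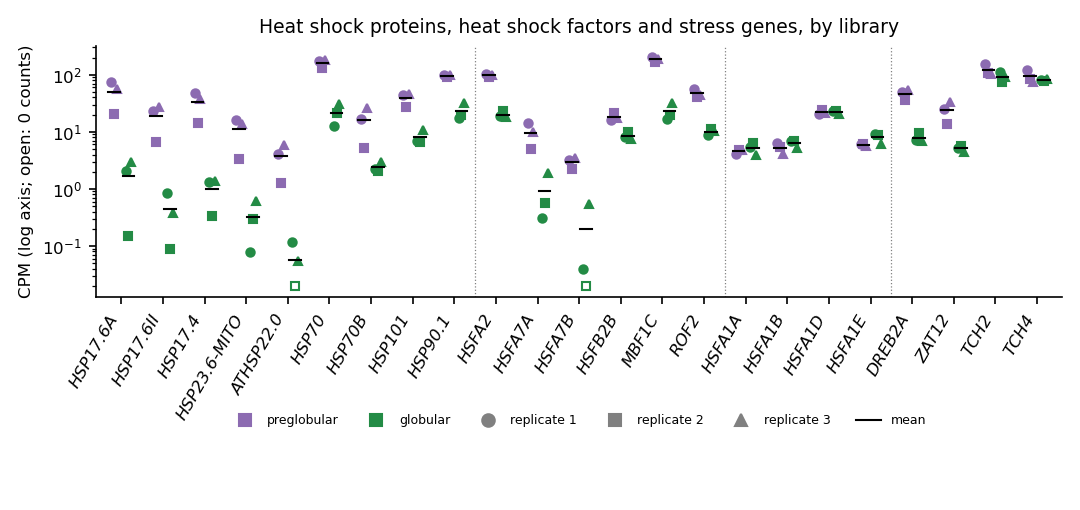
Levels of 23 heat shock and stress genes in the 6 libraries, in CPM on a log axis, with symbols as in the plot of patterning genes. Dotted lines separate heat shock proteins, other regulators and cochaperones, HSFA1 factors and genes of other stresses. The stages overlap for HSFA1A, HSFA1B, HSFA1D, TCH2 and TCH4, while the heat shock proteins and the group to their right stand lower at globular.

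Genes that govern entry into the cell cycle gave 1 higher and 6 lower of 23 tested. CYCD1;1, a D-type cyclin, had 1.09, 1.35 and 0.141 CPM and then 6.9, 9.75 and 11.6 CPM, a 10.98-fold rise. Inhibitors of the KRP family that were called lower were at low levels, such as KRP7, with 2.4, 2.15 and 3.14 CPM and then 0.97, 0.808 and 0.766 CPM, and KRP1, with 1.77, 2.06 and 1.36 CPM and then 0.659, 0.718 and 0.656 CPM. Both calls were lost under the TPM scaling, where 8 members of the list were higher (34.8%) and 0 lower, beside 40.5% and 5.11% of all loci. Without preglobular replicate 2 or globular replicate 2, 3 members were lower. CYCD3;2 had 271, 266 and 277 CPM and then 272, 288 and 293 CPM and RBR1, the retinoblastoma protein that restrains the cycle, 61.0, 52.1 and 42.4 CPM and then 67.6, 62.5 and 65.5 CPM, and neither was called. Of 16 histone genes tested, 1 was higher and 3 were lower, and 0 were lower without globular replicate 1 or 2 and 1 without preglobular replicate 3. DESeq2 and the filter of 5 CPM each gave 7 lower. The TPM scaling gave 4 higher (25.0%) and 0 lower, again beside 40.5% and 5.11% of all loci. The rise was that of HTA12, a histone H2A.W gene of heterochromatin, at 10.07, 8.21 and 9.65 CPM and then 12.9, 18.22 and 17.45 CPM.

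Silencing genes gave 5 higher and 6 lower of 41 tested among 42 listed. These shares, 12.2% and 14.6%, lie near the 11.4% and 12.2% of all loci. With the TPM scaling 21 were higher (51.2%) and 2 lower (4.88%), beside 40.5% and 5.11% of all loci. The DNA demethylases moved apart: ROS1 had 20.5, 20.0 and 19.4 CPM and then 43.6, 49.8 and 54.7 CPM, and DML3 had 6.57, 11.2 and 17.38 CPM and then 1.51, 1.14 and 1.31 CPM. ROS1 rose 2.47-fold and DML3 fell 8.86-fold, while DME, with 21.3, 17.44 and 18.18 CPM and then 22.7, 21.7 and 25.5 CPM, was not called. Of the Argonautes, AGO4, which directs DNA methylation, had 219, 220.2 and 206 CPM and then 343, 337 and 303 CPM and rose 1.52-fold. AGO5, an Argonaute known from reproductive tissue, had 75.0, 76.2 and 75.5 CPM and then 50.0, 34.3 and 31.2 CPM, a fall not called without globular replicate 2 or 3 or under the TPM scaling. NRPD1, the largest subunit of RNA polymerase IV, fell 1.86-fold, a call also lost under the TPM scaling. DCL4, which makes secondary small RNAs, rose 1.93-fold, and MET1, the maintenance methyltransferase, had 63.6, 58.9 and 64.5 CPM and then 74.6, 66.8 and 71.1 CPM and was not called. Without globular replicate 2 the list gave 3 higher and 3 lower, without globular replicate 3 it gave 4 and 3, and without preglobular replicate 1 it gave 3 and 5.

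Gibberellin genes gave 7 higher and 2 lower of 21 tested among 27 listed, and 11 and 0 with the TPM scaling. GA2OX2, which inactivates gibberellin, had 20.2, 9.95 and 7.07 CPM and then 100.4, 104 and 86.0 CPM, a 7.8-fold rise, and GA2OX4, of the same class, had 0.0907, 0.0448 and 0.0469 CPM and then 0.931, 1.79 and 2.02 CPM. Enzymes of synthesis rose too, with KAO2 at 8.3, 4.66 and 7.54 CPM and then 11.2, 18.16 and 15.6 CPM, and GA20OX2 at 0.997, 0.538 and 0.656 CPM and then 2.13, 2.45 and 2.02 CPM. RGA1, a DELLA repressor of the response, had 1.36, 2.11 and 0.0937 CPM and then 4.77, 7.42 and 8.2 CPM, whereas GAI had 7.44, 5.74 and 4.69 CPM and then 4.93, 8.7 and 7.93 CPM with overlap. The calls of GA1, which makes the precursor, and of the DELLA gene RGL2, both lower, were each lost without preglobular replicate 3 or globular replicate 1.

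Sugar and starch genes gave 4 higher and 2 lower of 21 tested among 23 listed, beside 11.4% and 12.2% of all loci. With the TPM scaling 9 were higher and 2 lower, beside 40.5% and 5.11% of all loci. SWEET12, a sucrose exporter, had 145, 272 and 325 CPM and then 39.8, 35.4 and 64.0 CPM, a 5.33-fold fall. SUS1, a sucrose synthase, had 5.3, 11.4 and 13.1 CPM and then 1.28, 1.59 and 2.41 CPM, a 5.65-fold fall, and GBSS1, which makes amylose, had 3.76, 4.13 and 2.3 CPM and then 8.26, 14.1 and 15.8 CPM and rose 3.74-fold. The number of higher members was 1 without preglobular replicate 1 and 2 without preglobular replicate 3 or globular replicate 2. Among the preglobular libraries SWEET12 and SUS1 were lowest in replicate 1. The part of other seed tissues in these values was not tested.

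Cell wall loosening genes, the expansins and xyloglucan endotransglucosylases, gave 5 higher and 4 lower of 31 tested among 62 listed. These shares, 16.1% and 12.9%, lie near the 11.4% and 12.2% of all loci. With the TPM scaling 14 were higher (45.2%) and 4 lower (12.9%), beside 40.5% and 5.11% of all loci. XTH16 had 23.7, 27.7 and 36.5 CPM and then 1.51, 3.29 and 3.5 CPM, EXPA9 had 58.0, 66.9 and 76.0 CPM and then 16.1, 15.3 and 18.4 CPM, and EXPA5 had 11.8, 3.81 and 2.72 CPM and then 42.8, 47.4 and 48.5 CPM. XTH16 fell 10.6-fold and EXPA9 4.03-fold, and EXPA5 rose 7.55-fold, all without overlap. EXPA14 and XTH30 fell 4.29-fold and 3.81-fold, and EXPA4 rose 2.88-fold. Members of a cluster of expansin genes, EXPA21, EXPA23 and EXPA25, were far higher in preglobular replicate 1 than in its fellows, as in EXPA21 with 62.5, 6.1 and 3.28 CPM and then 42.8, 51.1 and 51.2 CPM, and were not called. Without preglobular replicate 1, EXPA21 was called higher. Without preglobular replicate 3 or globular replicate 1, 3 members were higher.

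Aquaporins, channels for water and small solutes, gave 4 higher (16.0%) and 1 lower (4.0%) of 25 tested among 37 listed. The shares of all loci were 11.4% and 12.2%. With the TPM scaling 7 were higher (28.0%) and 0 lower, beside 40.5% and 5.11% of all loci. PIP1;4, of the plasma membrane, had 139.6, 93.5 and 104 CPM and then 281, 226 and 257 CPM, and NIP1;2 had 29.5, 13.99 and 7.68 CPM and then 52.1, 38.2 and 40.3 CPM. They rose 2.27-fold and 2.55-fold, beside 24.5-fold for PIP2;8. PIP1C, with 458, 394 and 452 CPM and then 404, 315 and 389 CPM, was not called. SIP1A, a small channel of internal membranes, fell 1.68-fold, a call lost under the TPM scaling.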

How the data were processed

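Per the submitters' processing notes, the authors trimmed reads with cutadapt 1.9.1 and quantified them with kallisto 0.43.1, and the notes name the build TAIR10. The deposited tables give estimated counts and TPM (a share of transcripts, scaled by length) for 54845 transcripts. Whether strand was used is not given in the sources used here. Estimated counts were summed over the transcripts of each locus and rounded, and spike-ins were left out of library sizes and tests. A quasi-likelihood model of all 24 stage libraries, by stage, was fitted with edgeR 4.0.16 (filterByExpr, TMM), so the spread is shared over stages, and the contrast globular minus preglobular was adjusted by Benjamini-Hochberg over 21014 loci. The SE of a log2 difference was derived from that test, as its size divided by the square root of the F statistic. Class shares were compared by exact two-sided permutation tests. Genes were named by fold among called loci with at least 50 CPM in a stage, by difference in level, and as members of 27 lists. By the naming rule, a gene was left out of its list where RefSeq gave its locus another symbol and no such synonym. Members, lists and tests were chosen with earlier results of these data known. Alternatives were RLE factors, other filters, limma 3.58.1 on the authors' TPM values, DESeq2 1.42.0, the 6 libraries alone, a replicate block, no organelle loci, and each library left out. R 4.3.3, Python 3.11.15, pandas 2.3.3 and numpy 2.4.6 were used, and promoters, microRNAs and target sites came from RefSeq TAIR10.1. The scripts were tested on simulated data.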

Additional observations from a re-analysis of the deposited data

How the results depend on the processing

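No locus was called in opposite directions under any alternative. The counts of 2406 higher and 2555 lower loci became 8501 and 1074 with limma on log2(TPM + 1), 8356 and 977 with log2(TPM + 0.1), and 7434 and 1091 with log2(TPM + 1) over nuclear loci alone, the last chosen after seeing the data. In the first of these, 2302 of the higher and 980 of the lower calls were kept. The cause was not tested. LEC1, not called in the counts, was called higher under log2(TPM + 1) over all and over nuclear loci (log2 differences 0.38 and 0.31), with a sign opposite to that in the counts. Leaving out each library gave 1469 to 2322 higher and 1850 to 2633 lower loci, with 1469 and 1850 without preglobular replicate 3. Same-numbered libraries of the stages had correlations of −0.218, −0.329 and 0.0856 in their deviations, so the numbers were not taken as pairs. With the replicate block in the 6 libraries, 1489 loci were higher and 1807 lower, against 2056 and 2225 without it. In the 6 libraries alone fewer members of the lists that follow were tested. Without and with the block, 34 and 22 of 47 photosystem and Calvin cycle genes were higher, and 8 and 7 of 16 apical genes. For auxin supply genes 8 and 4 of 25 were higher, and for gibberellin genes 8 and 3 of 17. For cell wall genes 4 and 2 of 27 were higher, and for sugar genes 2 and 1 of 18. Of 54 microRNA targets, 12 were lower without and 11 with the block. Entry to the cell cycle had 2 lower in the 6 libraries alone and 1 with the block. With a filter of 5 CPM, 49 mitochondrion-encoded genes were lower, of fewer tested. The counts over all loci stayed within 1.5 times under the other alternatives. The unknown RNA input, the spike-in shares that differ between the stages, and 3 libraries a stage limit what these data resolve.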
